A study of Drosophila melanogaster with 6 samples.

Results

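The ecdysteroid kinase-like (EcKL) genes are a family of kinase-like genes of Drosophila melanogaster, and all 50 listed members were found among the 15796 genes of the count table. Members were taken by gene symbol. The family was selected on the fold changes of AKH overexpression over control in these same libraries. Among these CG11893, CG13659 and CG31974 were some of the strongest increases. That comparison between the groups is therefore given for the members as a description. Calls of members come from a fit over all tested genes, and no test of the family was made. RNA was measured in the fat body of late 3rd instar larvae. The 3 AKH overexpression libraries came from larvae of genotype UAS-AKH/+; R4-Gal4/+, in which the adipokinetic hormone gene is driven by R4-Gal4. The 3 control libraries came from R4-Gal4/+ larvae, which carry the same driver without the UAS transgene, and the labels give w1118 as the strain. R4-Gal4 is a fat body driver, so the hormone is made here in an organ that normally receives it.

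EcKL proteins are named after an enzyme of the silkworm Bombyx mori that adds a phosphate to ecdysteroids, the moulting hormones of insects, for storage in an inactive form. Most fly members have no known substrate. The family has been proposed to phosphorylate small molecules in detoxification, and members of the large gene run on chromosome arm 3R have been tied to tolerance of caffeine in larvae. The fat body stores nutrients and secretes blood proteins in the larva and is one of its sites of detoxification. Adipokinetic hormone (AKH) is a glucagon-like peptide, normally released by the corpora cardiaca, that mobilises stored fat and sugar.

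Values are CPM, counts scaled by library size with TMM (trimmed mean of M values), unless RPKM, the deposited values scaled by gene length and library total, are named. Errors are the SD over n = 3 libraries per group. Fold changes are AKH overexpression over control on the log2 scale with their standard error (SE), from edgeR's quasi-likelihood fit over all tested genes. A gene was called when its Benjamini-Hochberg adjusted p over the 10705 tested genes was under 0.05. Counts of genes with an unadjusted p under 0.05 are given for some lists. The share of all tested genes under that threshold was not counted, so these counts show no excess or lack. The labels leave out whether replicates were separate pools of larvae, so a p-value measures the spread among these libraries alone, and that spread may be technical.

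Each library held 29803513 to 33150911 counts. A count of 0 allows up to 3 counts, which were worth 0.0907 to 0.109 CPM in a library. Akh, the overexpressed gene, averaged 1854 ± 227 CPM with AKH overexpression and 2.18 ± 0.319 CPM in controls. Its receptor gene AkhR averaged 39.8 ± 2.25 CPM with AKH overexpression and 142 ± 26.8 CPM in controls. The 9 fat body markers, led by the storage protein gene Lsp1gamma, summed to 372457 to 446055 CPM with AKH overexpression and 340956 to 482078 CPM in controls. The 23 midgut markers, led by the protease gene Jon65Aiv, summed to 119 to 870 CPM with AKH overexpression and 1666 to 4769 CPM in controls. The salivary gland list, led by Sgs3, summed to 21857 to 33661 CPM with AKH overexpression and 26273 to 30356 CPM in controls. Of the other marker lists, the haemocyte list (led by Col4a1) reached at most 1479 CPM in a library, the nervous system list (Syt1) 426 CPM, the tracheal list (pio) 213 CPM, the epidermal list (Lcp4) 174 CPM, the muscle list (sls) 159 CPM, the ring gland list without Akh 110 CPM, the male germline list (loopin-1) 64.9 CPM and the oenocyte list (Cyp4g1) 57.4 CPM. Malpighian tubule markers are given beside the members whose pattern they share.

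Of the 50 members, 38 had enough counts to be tested and 12 did not. Among the 38, 6 were called higher with AKH overexpression, 2 were called lower and 30 were not called. The 6 include CG11893, CG13659 and CG31974, on which the family was picked. Over all tested genes 1.87% were called higher and 1.91% lower, or 3.77% in either direction. DESeq2 called 12 of the 45 members it tested higher and 4 lower, against 3.31% and 4.98% of all genes it tested. Of the 38, limma-voom called 6 higher and 2 lower, against 1.79% and 1.69%. The limma-voom calls held CG33301 in place of CG33511. The median log2 fold change was 0.47 over the 38 tested members, 0.30 over the 35 left without CG11893, CG13659 and CG31974, and 0.02 over all tested genes. The fold change was above 0 in 27 of the 38 members (71.1%) and in 52.4% of all tested genes. The expression filter kept genes above 0.328 CPM in at least 3 of the 6 libraries, whatever their group. CG33511 was above it in 3 AKH overexpression and 2 control libraries, CG10553 in 3 and 1, and CG16898 in 2 and 3. In whole-organ RNA, a change in the number of cells of a type and a change in RNA per cell cannot be told apart.

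**Figure D1:**
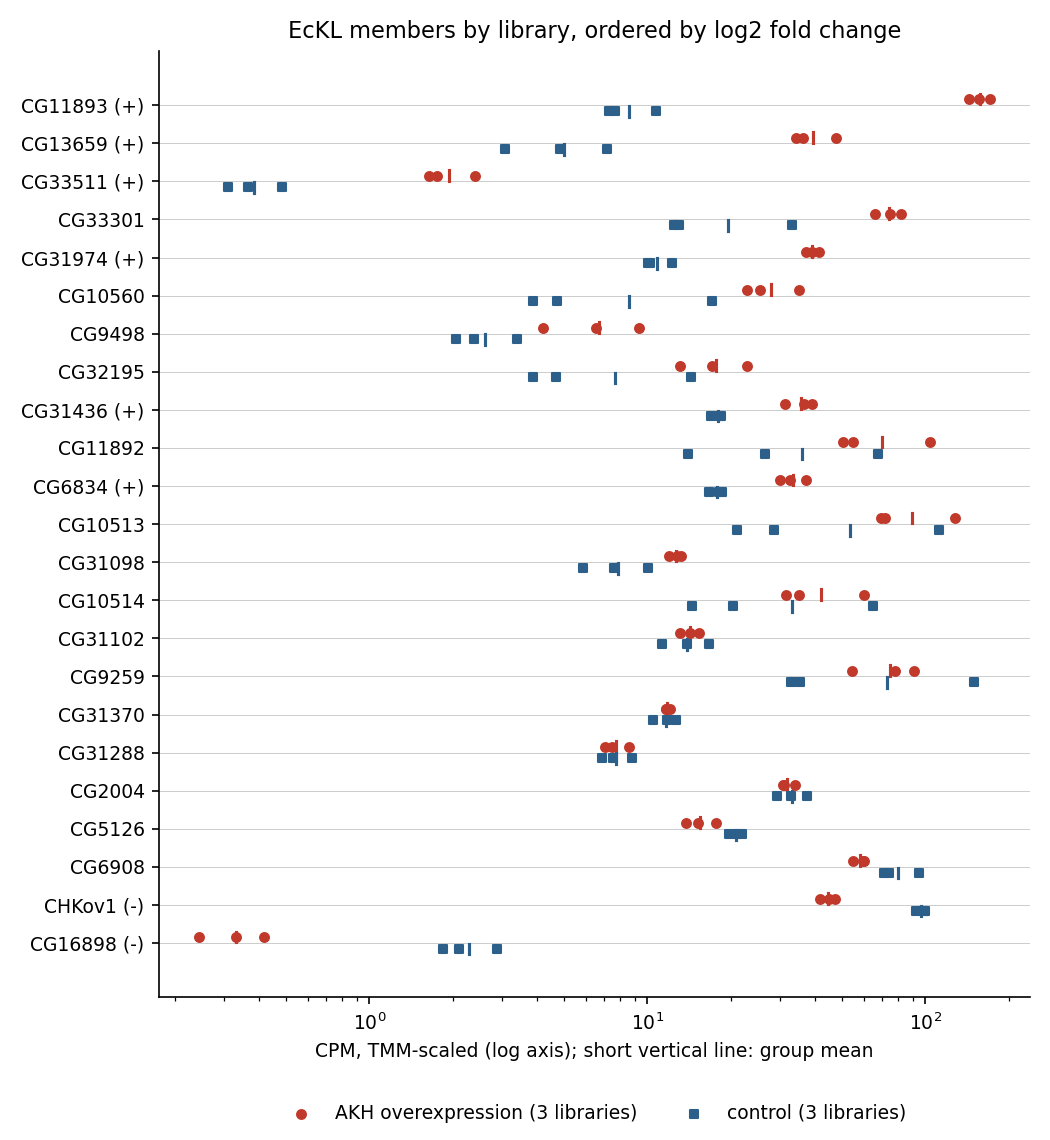
Level of 23 EcKL members in each library (CPM, TMM-scaled, log axis), ordered by log2 fold change; circles are the 3 AKH overexpression libraries, squares the 3 control libraries, and short vertical lines the group means. A plus or minus sign after a name marks a member called higher or lower; CG11893 lies at 143 to 171 CPM with AKH overexpression and at 7.31 to 10.8 CPM in controls, and members such as CG9259 and CG10513 have 1 control library far to the right of the others.

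CG11893 (FBgn0039316), a member of the 3R run with no known substrate, had the highest fold change in the family. It had 171, 155 and 143 CPM in AKH overexpression replicates 1 to 3, against 7.68, 7.31 and 10.8 CPM in control replicates 1 to 3. The groups were far apart, with 157 ± 13.9 CPM with AKH overexpression and 8.58 ± 1.90 CPM in controls, and the log2 fold change was 4.19 (SE 0.18), or 18.3-fold. Scaled by gene length, it was the most abundant member with AKH overexpression, at 111 ± 13.3 RPKM, and ranked 16 in controls, at 5.96 ± 0.599 RPKM. It made up 17.4% ± 2.76 of the family's summed RPKM with AKH overexpression and 1.41% ± 0.170 in controls.

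CG13659 (FBgn0039319), which lies further along the same run, had 36.3, 34.3 and 47.8 CPM in AKH overexpression replicates 1 to 3, against 4.84, 3.07 and 7.19 CPM in the controls. The groups did not overlap, with the wider relative spread among the controls, and the log2 fold change was 2.98 (SE 0.32), or 7.86-fold. CG31974 (FBgn0051974), which lies on 2L near CG31975, had 39.0, 41.4 and 37.1 CPM with AKH overexpression, against 12.3, 10.3 and 10.1 CPM in controls. Both groups were tight in CG31974, and its log2 fold change was 1.85 (SE 0.10), or 3.61-fold.

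The other members called higher changed less or were scarce. CG31436 (FBgn0051436), also in the 3R run, had 31.2, 36.7 and 39.0 CPM with AKH overexpression, against 18.2, 18.5 and 17.0 CPM in controls, a log2 fold change of 0.99 (SE 0.10). CG6834 (FBgn0037935), from a shorter run of the family on 3R, had 32.5, 37.3 and 30.01 CPM with AKH overexpression, against 16.6, 18.6 and 18.1 CPM in controls, a log2 fold change of 0.90 (SE 0.10). In both genes every AKH overexpression library lay above every control library. CG33511 (FBgn0053511) on 2L was scarce, at 2.40, 1.75 and 1.63 CPM with AKH overexpression, against 0.484, 0.310 and 0.365 CPM in controls. Its log2 fold change was 2.31 (SE 0.33), and its call was lost when any library other than control replicate 3 was left out. The call was also lost with limma-voom, and a stricter filter on low counts left the gene untested.

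CHKov1 (FBgn0045761), at the far end of the 3R run, was called lower. An allele of this gene with a Doc transposon insertion is known for its link to organophosphate and sigma virus resistance, and the reference annotation places such an insertion over an exon of the gene. CHKov1 had 44.9, 47.3 and 41.7 CPM with AKH overexpression, against 99.5, 92.3 and 98.6 CPM in controls. All AKH overexpression libraries lay below all controls with little spread in either group, and the log2 fold change was -1.12 (SE 0.08). CHKov1 was the most abundant member in controls, at 53.0 ± 6.81 RPKM with AKH overexpression and 113 ± 10.7 RPKM in controls, and held 8.21% ± 0.673 of the family's summed RPKM with AKH overexpression and 27.6% ± 7.89 in controls. Its neighbour CHKov2 averaged 3.04 ± 0.490 CPM with AKH overexpression and 3.09 ± 0.462 CPM in controls, a log2 fold change of -0.02 (SE 0.19).

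CG16898 (FBgn0034480), a member on 2R with no close neighbour from the family, was the other member called lower. It had 0.244, 0.332 and 0.417 CPM with AKH overexpression, against 1.84, 2.11 and 2.88 CPM in controls. These values rest on 8, 11 and 12 counts in the AKH overexpression libraries, against 57, 68 and 79 counts in the controls. The log2 fold change was -2.77 (SE 0.35), and the call was lost without AKH overexpression replicate 1. The summed midgut markers were also lower in all AKH overexpression libraries than in all controls. So were the 13 muscle markers, at 100, 117 and 119 CPM with AKH overexpression, against 148, 125 and 159 CPM in controls, of which edgeR called Mlc1 and Mlc2 lower and 10 had an unadjusted p under 0.05. The 6 tracheal markers summed to 141 to 146.9 CPM with AKH overexpression and 147.1 to 213 CPM in controls, with 0 called by edgeR or limma-voom, 2 by DESeq2 and 2 at an unadjusted p under 0.05. The part of these tissues in the values of CHKov1 and CG16898 was not tested.

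**Figure D2:**
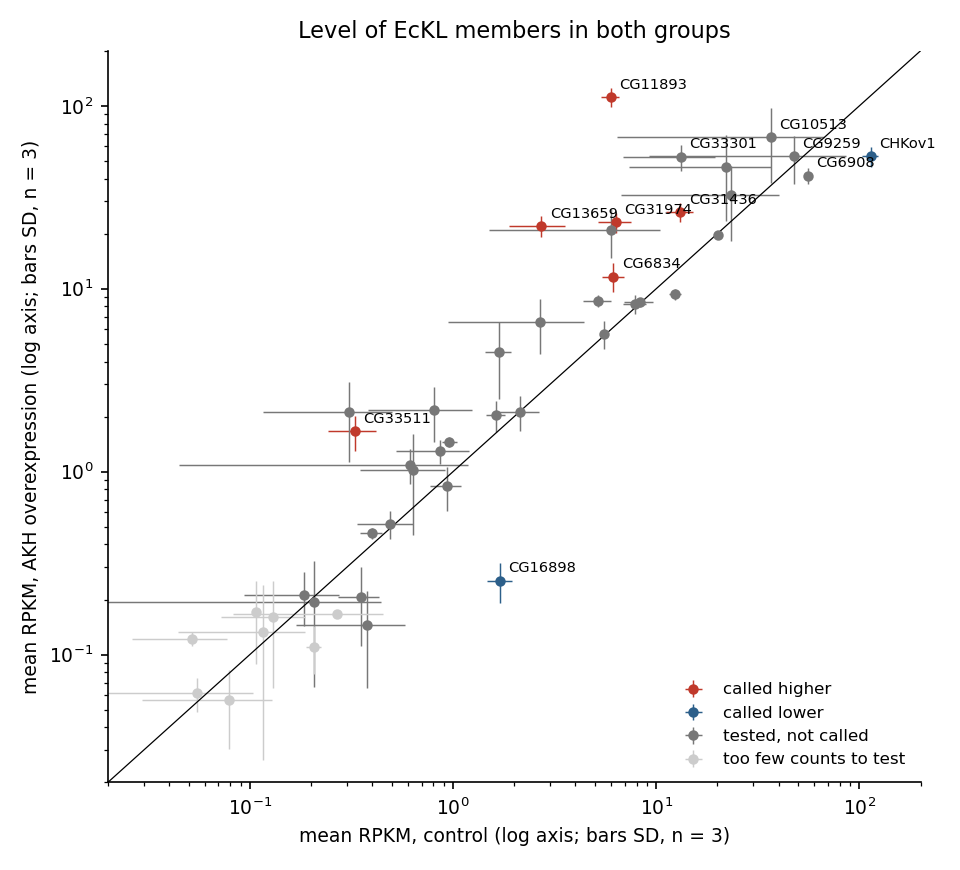
Mean level of the EcKL members with at least 1 count, in RPKM on log axes, with AKH overexpression on the vertical axis and control on the horizontal axis; bars are the SD over 3 libraries, cut where they reach the axis limits, and the diagonal marks equal levels. CG11893 stands highest, at 111 RPKM with AKH overexpression and 5.96 RPKM in controls, while CHKov1 is the member farthest right, at 53.0 RPKM with AKH overexpression and 113 RPKM in controls.

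The most abundant members thus differed in order between the groups. By mean RPKM the order with AKH overexpression was CG11893, CG10513 at 67.2 ± 29.5, CHKov1, CG9259 at 52.9 ± 15.7 and CG33301 at 52.8 ± 8.54 RPKM. In controls it was CHKov1, CG6908 at 55.8 ± 2.49, CG9259 at 47.6 ± 38.4, CG10513 at 36.8 ± 30.4 and CG10514 at 23.4 ± 16.6 RPKM. Neighbours in these orders overlapped in their SD, except CG11893 and CHKov1 at the 2 heads. A level of at least 1 RPKM was reached by 30 of the 50 members with AKH overexpression and by 24 in controls. Summed over the family, the libraries held 857, 1066 and 869 CPM with AKH overexpression, against 458, 455 and 848 CPM in controls. Control replicate 3 reached the level of the AKH overexpression libraries in this sum, and the other controls were well below it.

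That library set 9 of the 38 tested members apart from the rest. In these members control replicate 3 was at least 2 times both other controls, which held for 1.27% of all tested genes, and for 10.5% and 0.448% when control replicate 2 or 1 took its place. The rule was set after the values were seen. The ratio of control replicate 3 to the higher of the other controls ran from 2.36 in CG31097 to 4.23 in CG9259, and the next members below it were CG31087 at 1.51 and CG13659 at 1.49. No member had control replicate 3 at 1/2 or less of both other controls, against 3.32% of all tested genes. In 8 of the 9, all but CG31097, AKH overexpression replicate 2 was the highest of its group. AKH overexpression replicate 2 was the highest of its group in 34.5% of all tested genes.

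CG33301 (FBgn0053301) on 2L had 65.7, 81.8 and 74.6 CPM with AKH overexpression, against 12.5, 13.04 and 33.2 CPM in controls, and was not called at a log2 fold change of 1.92 (SE 0.40). CG10560 (FBgn0039325), in the 3R run beside CG10553, had 22.8, 35.1 and 25.5 CPM with AKH overexpression, against 3.87, 4.74 and 17.1 CPM in controls, with a log2 fold change of 1.70 (SE 0.58). In both the groups did not overlap, and control replicate 3 lay between the AKH overexpression libraries and the other controls. CG10553 (FBgn0039324) showed the same order at a low level, with 3.26, 4.05 and 1.63 CPM with AKH overexpression, against 0.290, 0.248 and 0.876 CPM in controls, and a log2 fold change of 2.67 (SE 0.60). CG32195 (FBgn0052195) on 3L, whose annotated exons overlap CG7341 on the same strand, had 13.1, 22.8 and 17.1 CPM with AKH overexpression, against 3.87, 4.71 and 14.4 CPM in controls. Its control replicate 3 fell within the range of the AKH overexpression libraries, and its log2 fold change was 1.21 (SE 0.53).

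In the other members of this set too, control replicate 3 was above at least 1 AKH overexpression library. CG10513 (FBgn0039311) had 69.1, 128 and 71.5 CPM with AKH overexpression, against 28.6, 21.1 and 112 CPM in controls, with a log2 fold change of 0.73 (SE 0.65). CG11892 (FBgn0039313) had 55.1, 104 and 50.4 CPM with AKH overexpression, against 14.0, 26.4 and 67.5 CPM in controls, with a log2 fold change of 0.96 (SE 0.59). In both, AKH overexpression replicate 2 was the highest library and control replicate 3 lay above the other AKH overexpression libraries. CG10514 (FBgn0039312), which lies between these genes in the run, had 35.1, 60.3 and 31.5 CPM with AKH overexpression, against 14.5, 20.3 and 64.6 CPM in controls. CG9259 (FBgn0032913) on 2L had 54.4, 91.1 and 77.6 CPM with AKH overexpression, against 35.4, 33.0 and 149.8 CPM in controls. In CG10514 and CG9259 control replicate 3 was the highest of all 6 libraries, and the log2 fold changes were 0.35 (SE 0.59) and 0.03 (SE 0.62). The same library was highest in the scarce CG31097, the member of this set with a negative log2 fold change, -1.41 (SE 0.73). It had 0.213, 0.0907 and 0.348 CPM with AKH overexpression, against 0.290, 0.434 and 1.02 CPM in controls.

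None of the 9 was called by edgeR over all 6 libraries with TMM scaling, the default filter and no block, although 3 of them had an unadjusted p under 0.05. With other settings over all 6 libraries edgeR called CG33301 (replicate block, a stricter filter or scaling by library size alone) and CG10553 (library size alone). DESeq2 called CG33301, CG10553 and CG10560, and limma-voom called CG33301. The 9 were picked for high values in control replicate 3, so leaving it out lowers their control mean by construction. The calls without it are a description. Without control replicate 3, edgeR called 4 of them higher: CG33301 at 2.54 (SE 0.12), CG10560 at 2.69 (SE 0.24), CG32195 at 2.04 (SE 0.27) and CG10553 at 3.45 (SE 0.52) on the log2 scale. CG31098 was added too, and in all 11 members were called higher and 2 lower, against 2.65% and 1.69% of all genes tested without that library. The members' median log2 fold change was 0.69 without control replicate 3, and that of all tested genes was -0.01. When AKH overexpression replicate 2 was left out as well, 9 members were called higher and CHKov1 alone was called lower, against 2.10% and 1.56% of all genes.

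The 13 Malpighian tubule markers, genes of the excretory organ that a dissection can carry along, summed to 278, 369 and 278 CPM with AKH overexpression, against 167, 189 and 431 CPM in controls. Control replicate 3 was thus the highest library, and AKH overexpression replicate 2 the highest of its group, as in the members above. In 7 of the 13 markers control replicate 3 was at least 2 times both other controls, and none of the 13 was at 0 counts in all libraries. Uro, the urate oxidase gene and the most abundant of them, had 62.8, 93.1 and 55.4 CPM with AKH overexpression, against 20.8, 22.9 and 166 CPM in controls. Over all 6 libraries 0 of the markers were called higher and 1, the cotransporter gene Ncc69, lower by edgeR (adjusted p = 0.0300, lost in 4 of the 6 fits that left out a library), and 3 had an unadjusted p under 0.05. Without control replicate 3, edgeR called 4 of the markers higher and 1 lower. The part of Malpighian tubule RNA in the members' values was not tested.

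**Figure D3:**
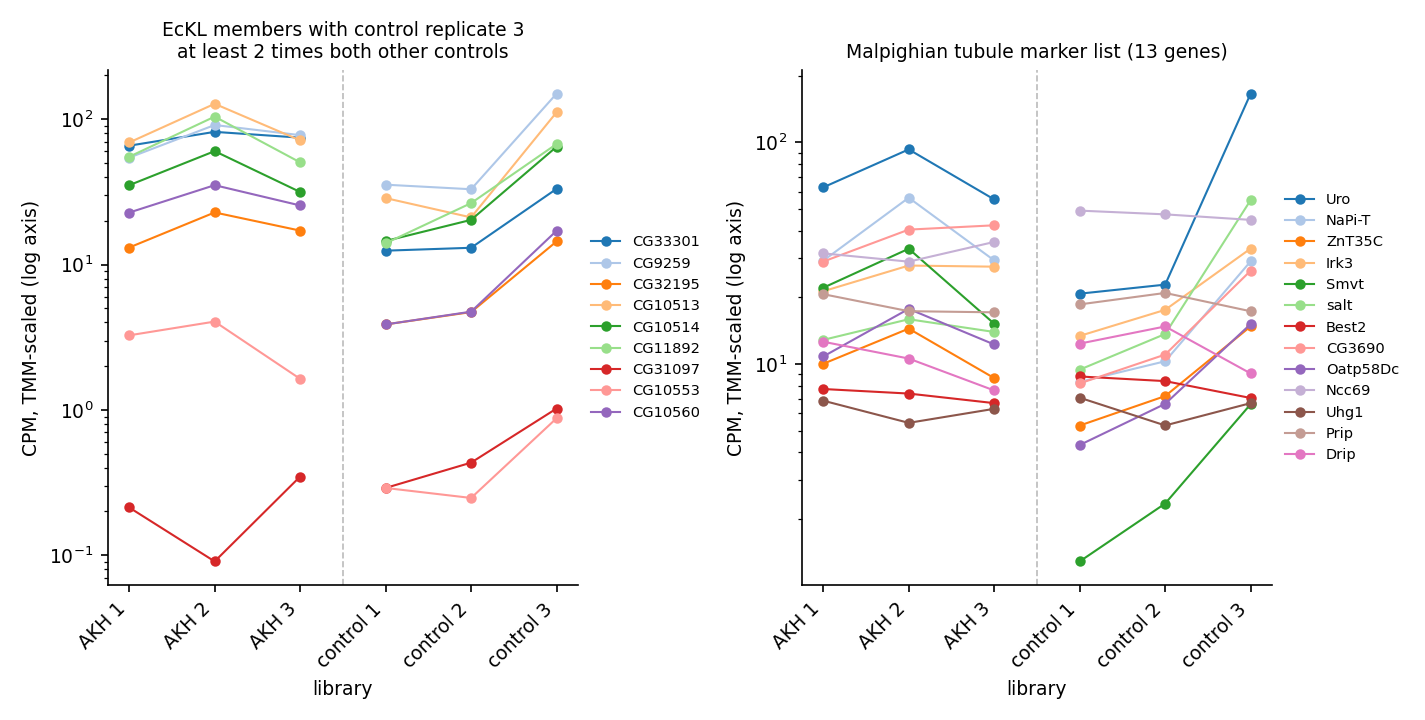
CPM in each of the 6 libraries on log axes for the 9 EcKL members in which control replicate 3 was at least 2 times both other controls (left) and for the 13 Malpighian tubule markers (right); lines only join the values of a gene, since replicates have no order. Control replicate 3 stands above the other controls in all 9 members, with CG9259 at 149.8 CPM, and Uro, at 166 CPM, does so among the markers, while markers such as Ncc69 and Drip do not.

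Several members were expressed at similar levels in both groups. CG31102 averaged 14.3 ± 1.15 CPM with AKH overexpression and 13.9 ± 2.68 CPM in controls, and CG31370 averaged 11.8 ± 0.256 CPM with AKH overexpression and 11.7 ± 1.096 CPM in controls. CG31288 averaged 7.69 ± 0.805 CPM with AKH overexpression and 7.74 ± 0.997 CPM in controls. These 3 genes lie in the 3R run within a few places of CG11893 and CG13659, and their log2 fold changes were 0.04 (SE 0.15), 0.02 (SE 0.09) and -0.01 (SE 0.13). CG2004 on the X, whose exons overlap Hexo2 on the opposite strand, had a log2 fold change of -0.06 (SE 0.11), with libraries at 30.8 to 34.0 CPM with AKH overexpression and 29.3 to 37.5 CPM in controls.

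Another 4 members with at least 5 CPM in a group differed between the groups without a call by edgeR with TMM scaling over all 6 libraries. DESeq2 called all 4, and edgeR with library size alone called CG31098. CG31098, next to CG11893 in the run, had 11.99, 12.8 and 13.2 CPM with AKH overexpression, against 7.58, 5.85 and 10.03 CPM in controls, a log2 fold change of 0.70 (SE 0.19). CG9498 on 2L had 6.51, 9.34 and 4.21 CPM with AKH overexpression, against 2.39, 2.04 and 3.39 CPM in controls, a log2 fold change of 1.36 (SE 0.33). In both the groups did not overlap. CG6908, second among the members in controls by RPKM, had 60.4, 59.5 and 55.1 CPM with AKH overexpression, against 73.8, 71.3 and 94.9 CPM in controls, a log2 fold change of -0.46 (SE 0.12). CG5126 on 2L, whose exons overlap CG4896 on the opposite strand, had 15.2, 13.8 and 17.6 CPM with AKH overexpression, against 21.03, 19.6 and 21.9 CPM in controls, a log2 fold change of -0.43 (SE 0.11). All AKH overexpression libraries lay below all controls in CG6908 and CG5126. Over the family, all AKH overexpression libraries lay above all controls in 14 of the 38 tested members, against 10.8% of all tested genes, and below them in 5, against 13.5%.

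A further 15 tested members stayed under 5 CPM in both groups and were not called by edgeR with TMM scaling over all 6 libraries. They were CG9497, CG33510, CG33509, CG5644, CG6830, CG18765, CG14314, CG31097, CG10550, CG31099, CG31087, CG10559, CG10553, CHKov2 and CG7135. Their means were 0.217 to 3.34 CPM with AKH overexpression and 0.275 to 3.09 CPM in controls, and their log2 fold changes ran from -1.41 in CG31097 to 2.67 in CG10553. DESeq2 called CG33510 and CG10553 among them higher. Of the 12 members not tested, CG31975, CG11891, CG11889 and the juvenile hormone-inducible gene JhI-26 had 0 counts in every library. The other 8 were CG13813, CG11878, CG31300, CG31104, CG13658, CG10562, CG31380 and CG1561, now named pkm. These had 2 to 16 counts per AKH overexpression library and 0 to 20 per control library.

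Gene order in the Ensembl BDGP6 annotation, a later build than the authors', was used to find neighbours, and no coordinates are given. It places 32 members on 3R, 10 on 2L, 3 on 3L, 3 on the X and 2 on 2R. With at most 1 other protein-coding gene allowed between members, 5 runs were found, and the longest held 26 members on 3R from CG11891 to CHKov2 with no other protein-coding gene between them. Of the 19 tested members of this run, 3 were called higher (CG11893, CG13659 and CG31436), 1 lower (CHKov1) and 15 were not called. Of the 19 tested members outside it, 3 were called higher, 1 lower and 15 were not called. Within the run CG11893 stood next to CG13658, which had too few counts to be tested, and CG31098, which was not called. CG13659 stood between CG31288 and CG31370, both at similar levels in the groups. Between the called members of the run lay members at similar levels, members with few or no counts, and members such as CG31098, CG10553 and CG10560. In these 3 the groups did not overlap, although edgeR with TMM scaling over all 6 libraries did not call them. Reads shared by near-identical copies could be split or dropped by the counting, and the similarity of the members' sequences was not analysed here.

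**Figure D4:**
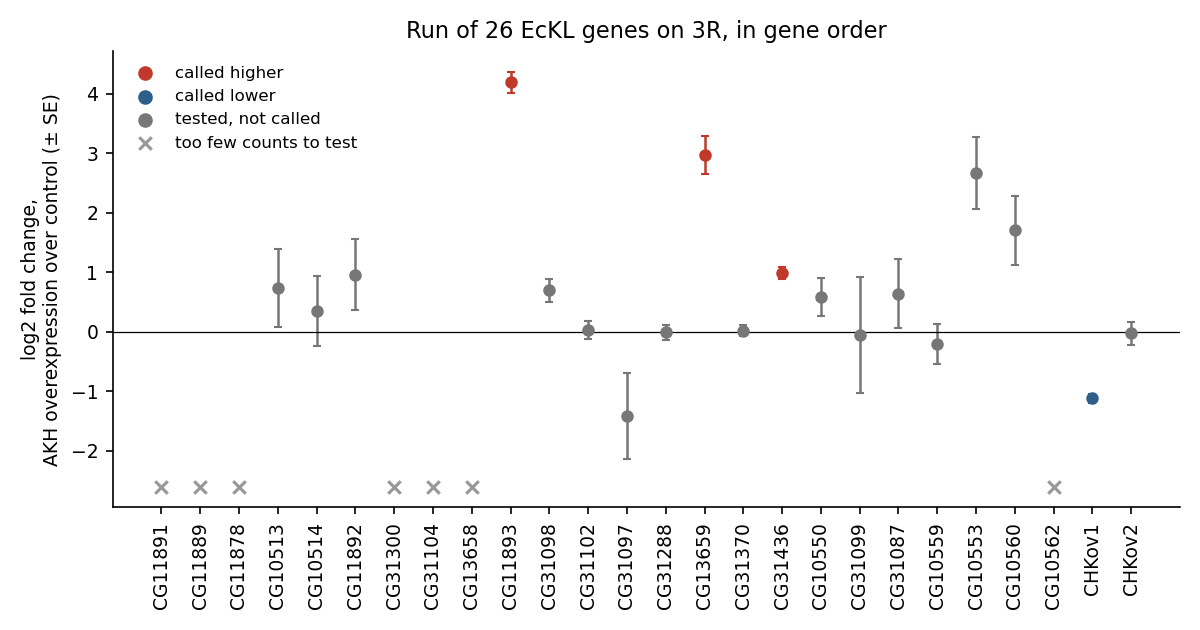
Log2 fold change of AKH overexpression over control with its SE for the 26 members of the 3R run, in gene order; crosses at the bottom mark the 7 members with too few counts to test. CG11893 at 4.19, CG13659 at 2.98 and CG31436 at 0.99 were called higher and CHKov1 at -1.12 lower. The members between them, not called in this fit, start at CG31097 at -1.41, a scarce member. They run through those near 0, such as CG31288 and CG31370, to CG10560 at 1.70 and CG10553 at 2.67.

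The processes that the family has been tied to were described with lists of other genes. Of 13 tested genes of ecdysteroid synthesis, import and breakdown, edgeR called 0, as did DESeq2 and limma-voom, while 1 gene had an unadjusted p under 0.05. The median log2 fold change was 0.12. The most abundant of them, the ecdysteroid importer gene Oatp74D (EcI), averaged 123 ± 11.7 CPM with AKH overexpression and 122 ± 17.2 CPM in controls. The synthesis genes sro and shd reached up to 129 and 152 CPM in a library. The log2 fold change of sro was 0.50 (SE 0.17), and over all 6 libraries edgeR called it only with library size alone, as did limma on RPKM. The synthesis genes spok, phm and sad reached at most 32.6, 48.3 and 30.2 CPM in a library. The ring gland list without Akh reached 110 CPM, nearly all of it from spok, phm and sad themselves, so it is no separate measure of ring gland RNA. The part of ring gland RNA in the values of these synthesis genes was not tested. Of 22 tested genes of the ecdysone receptor and response, edgeR called 0, as did limma-voom, and DESeq2 called 1, while 4 genes had an unadjusted p under 0.05. The median was -0.13. Some of these genes differed widely among the controls. In control replicates 1 to 3, Hr4 had 6.71, 62.6 and 1.86 CPM, and ImpE2 had 140, 254 and 26.8 CPM. Others were even, such as usp at 33.7, 35.7 and 33.1 CPM. The log2 fold change of Hr4 was -3.27 (SE 1.26). The ecdysone-induced Fbp1, a receptor for larval storage proteins, was the most abundant at 46503 ± 10835 CPM with AKH overexpression and 46906 ± 2490.4 CPM in controls.

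Among 17 juvenile hormone genes, 1 rose, 1 fell and 15 were not called, with a median log2 fold change of 0.11. DESeq2 called 2 of the 17 and limma-voom 2, and 5 had an unadjusted p under 0.05. Jheh1, a juvenile hormone epoxide hydrolase gene, fell to 35.6 ± 3.79 CPM with AKH overexpression, against 78.7 ± 12.3 CPM in controls (log2 fold change -1.14, SE 0.14, edgeR adjusted p = 0.0104). The call of Jheh1 was lost without AKH overexpression replicate 1 (edgeR adjusted p = 0.0547). Fpps, which makes farnesyl diphosphate upstream of juvenile hormone, averaged 94.2 ± 6.05 CPM with AKH overexpression and 59.3 ± 9.38 CPM in controls (0.67, SE 0.13, edgeR adjusted p = 0.0453), and its call was lost in 5 of the 6 fits that left out a library, with an adjusted p of up to 0.220.

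Of 11 regulators of the xenobiotic response, 1 rose and 10 were not called, with a median of 0.06. DESeq2 and limma-voom each called 1, and 4 had an unadjusted p under 0.05. The regulator that rose was cwo, a clock repressor, at 78.3 ± 6.04 CPM with AKH overexpression and 43.2 ± 6.64 CPM in controls (0.86, SE 0.13, edgeR adjusted p = 0.0203), and its call too was lost in 5 of those 6 fits, with an adjusted p of up to 0.125. Of 25 enzymes that xenobiotics can induce, 2 rose, 3 fell and 20 were not called, with a median of 0.01. Over all tested genes edgeR called 3.77% in either direction. DESeq2 called 9 of the 25, against 3.31% higher and 4.98% lower of all genes it tested. With limma-voom 3 were called, against 1.79% and 1.69%. An unadjusted p under 0.05 was found in 10 of the 25, with no share of all genes to set beside it. The cytochrome P450 gene Cyp304a1 fell to 0.485 ± 0.201 CPM with AKH overexpression, against 36.4 ± 14.9 CPM in controls (-6.22, SE 0.47, edgeR adjusted p = 0.00206). Cyp4e3, another P450 gene, fell to 0.185 ± 0.136 CPM with AKH overexpression, against 31.6 ± 20.7 CPM in controls (-7.36, SE 0.93, edgeR adjusted p = 0.0120), and its call was lost when any AKH overexpression library was left out. Both P450 calls were lost with limma-voom. The third was Jheh1, given above. The enzymes that rose were the P450 gene Cyp6d4, at 23.02 ± 1.45 CPM with AKH overexpression and 13.3 ± 2.26 CPM in controls, and the glucuronosyltransferase gene Ugt35C1, at 11.9 ± 2.13 CPM with AKH overexpression and 4.02 ± 1.56 CPM in controls. Their log2 fold changes were 0.79 (SE 0.14) and 1.56 (SE 0.30), with edgeR adjusted p = 0.0341 and 0.0449. Each was lost in 5 of the 6 fits that left out a library, with an adjusted p of up to 0.138 in Cyp6d4 and 0.135 in Ugt35C1.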

How the data were processed

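RNA of 6 fat body libraries was extracted with Trizol and sequenced on an Illumina HiSeq instrument after TruSeq RNA library preparation, per the labels' protocols. The authors deposited raw read counts per gene and RPKM per gene. Bowtie2 2.0.6, TopHat2 2.0.9, HTSeq 0.5.4p3, DESeq 1.10.1 and build BDGP5 are named in the submitters' processing notes; what each did, the strand setting and the handling of multiply matching reads are not given in the sources used, so overlapping genes may share reads. The deposited RPKM are the counts scaled by library total and 1 length per gene, checked in 23 members with over 50 counts in every library, where the implied length varied by at most 1.01e-07 of itself. Of the counts, 0.0702% lay in 115 genes without a FlyBase identifier, which were kept.

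The deposited counts went into edgeR 4.0.16 under R 4.3.3 (default expression filter at 0.328 CPM, TMM, quasi-likelihood F test, no covariate, all 6 libraries), with p-values adjusted over all tested genes. The SE is the log2 fold change divided by the square root of F. A prior count of 2 entered log2 CPM, such as those behind the correlations of same-numbered libraries, and not the fold changes. Within groups the chi-square per degree of freedom was 36.4 to 87.8, so no library repeats another. The limit given for a count of 0 covers counting error alone.

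The members, the gene lists and the naming rule were chosen with earlier results of these data known. The rule gives every library's values for members called or with a mean of at least 5 CPM in a group, from each pathway list up to 3 called genes with the smallest p or else the most abundant gene, and from each marker list the most abundant gene, plus Akh and AkhR. Ncc69, Mlc1, Mlc2, Cyp6d4, Ugt35C1, CG10553, CG31097, CHKov2, sro, shd, spok, phm, sad, Hr4, ImpE2 and usp were named in addition, after their values were seen. Alternatives covered scaling, tools (DESeq2 1.42.0, limma 3.58.1), filters on low counts, call thresholds, limma on RPKM at the log2 scale with 1 or 0.1 added, a block for replicate number, and each library left out in turn. A fit without control replicate 3 and AKH overexpression replicate 2 was added after the data were seen. The procedure was tested on simulated data.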

Additional observations from a re-analysis of the deposited data

How the results depend on the processing

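Over all settings run, the 8 called members kept the sign of their fold change in all 150 values. Of 434 values in the 23 members given by library, 423 stayed within 1 SD of the value reported. The sign turned in 21 values of 6 uncalled members (CG9259, CG10514, CG31102, CG31288, CG31370 and CG2004), whose reported log2 fold changes were -0.06 to 0.35 and whose turned values ran from -0.34 to 0.10. The number of members called was 8 and became 16 with DESeq2. Leaving out 1 library gave 6 to 13 members, the 13 without control replicate 3, and leaving out AKH overexpression replicate 2 as well gave 10. With the other scalings, tools, filters and RPKM fits it was 7 to 11, at an adjusted p under 0.01 it was 6 and under 0.1 it was 12. Over all genes 404 were called, against 988 with DESeq2, 132 at an adjusted p under 0.01, 721 under 0.1 and 144 to 479 when 1 library was left out. Of the listed hormone and xenobiotic genes 7 were called, against 12 with DESeq2, 1 at an adjusted p under 0.01 and 1 to 8 when 1 library was left out. The cause of these differences was not tested, and fits that leave out a library also hold fewer libraries. The replicate number as a block gave 9 members, adding CG33301, and 430 genes in all. The deviations of same-numbered libraries had correlations of -0.369, 0.600 and 0.502 for replicates 1 to 3, so those of replicate 1 ran in opposite directions. Not every library correlated best with its own number. Deviations from a group mean constrain each other, so these correlations cannot decide whether same-numbered libraries were paired. The 12 members under the filter of 0.328 CPM were not tested, so depth limits what can be said of them.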

Other observations

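The pattern of high values in control replicate 3 was shared by genes outside the family. Of the 136 tested genes with control replicate 3 at least 2 times both other controls, 9 were EcKL members and 127 were other genes. AKH overexpression replicate 2 was the highest of its group in 94 of the 136 (69.1%), against 34.5% of all tested genes. The rule was chosen after the values were seen, and no test was made.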
